A study of Mus musculus with 8 samples.

Results

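The 10 genes described here encode the core of the Polycomb repressive complexes in mouse preimplantation embryos. They were chosen by symbol, as Ezh1, Ezh2, Eed, Suz12 and Jarid2 of Polycomb repressive complex 2 (PRC2) and Rnf2, Ring1, Bmi1, Pcgf6 and Kdm2b of Polycomb repressive complex 1 (PRC1), and are 10 of the 23234 genes listed per library. Transcripts of whole embryos were measured in 8 libraries, which form 4 groups of 2 by embryo stage and oocyte genotype. The groups were blastocysts from Tet3-null oocytes, blastocysts from wild-type oocytes, 2-cell embryos from Tet3-null oocytes and 2-cell embryos from wild-type oocytes. Tet3-null oocytes came from CKO females with 1 floxed Tet3 allele, 1 null allele (f/-) and Zp3-Cre, a transgene that acts in growing oocytes. Wild-type oocytes came from f/f females, which carry 2 floxed alleles, and the labels do not say whether these carried Cre. Fertilization was in vitro, by CAST/EiJ sperm in all groups, so that every embryo received a paternal Tet3 allele and the genotype names refer to the oocyte. The embryos were cultured in KSOM and frozen as pools, of 7 blastocysts at 96 h after fertilization or of 10 2-cell embryos at 30 h. Whether the pools of a group had separate mothers or collection days is not in the labels. P-values therefore cover the spread between these samples alone, and that spread may be technical.

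Polycomb complexes keep developmental genes silent through marks on histones. PRC2 methylates lysine 27 of histone H3 through Ezh1 or Ezh2, which work only in a complex with Eed and Suz12, and Jarid2 is an accessory subunit that helps bring PRC2 to chromatin. PRC1 ubiquitinates histone H2A through Ring1 or Rnf2 (RING1B), each paired with a PCGF protein that sets the type of complex. Bmi1 (PCGF4) forms canonical PRC1 with CBX and PHC proteins, Pcgf6 forms a variant PRC1 with Mga, Max and E2f6, and Kdm2b brings the Pcgf1 variant complex to unmethylated CpG islands. In mouse, PRC2 marks deposited in the growing oocyte persist after fertilization and silence the maternal allele of a small group of genes, Xist among them.

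Values are FPKM, fragments scaled by gene length and by each library's mapped total, as deposited, and a mean ± SD is over the 2 libraries of a group. Summed FPKM was 924556 to 956335 in blastocyst and 600495 to 634816 in 2-cell libraries. Absolute read totals are unknown; judged by the commonest ratio of values under 0.15 FPKM, the other libraries' depth over that of wild-type replicate 1 was 1.13 to 1.31 at the blastocyst stage and 1.01 to 1.22 at the 2-cell stage. These estimates rest on few genes, 8 for Tet3-null 2-cell replicate 2 and 26 to 179 for the other libraries compared. One library stood apart, Tet3-null 2-cell replicate 2, with 7101 genes at 0 against 5370 to 6080 in the other 7. Most marker sets followed the stages: all 7 oocyte genes were under 1 FPKM in both Tet3-null blastocyst libraries and all but Zp3 in both wild-type ones, while all 7 reached 1 FPKM in every 2-cell library. The 7 trophectoderm genes reached 1 FPKM in every blastocyst library, and all but Cdx2 also did in every 2-cell library. Their sums separated the stages, at 2742 to 4543 FPKM in blastocysts and 51.4 to 66.4 FPKM in 2-cell embryos. Of the 6 primitive endoderm markers, Sox17 was under 1 FPKM in both Tet3-null blastocyst libraries and Sox7 in all 4 blastocyst libraries. The 8 genes of the 2-cell stage summed to 87.2 to 92.9 FPKM in blastocysts and 1085 to 1964 FPKM in 2-cell embryos. The 6 epiblast markers did not separate the stages, with 235 to 262 FPKM in blastocysts and 209 to 249 FPKM in 2-cell embryos. Tet3 itself gave 3.28 and 4.41 FPKM in Tet3-null 2-cell embryos, against 10.8 and 7.54 FPKM in wild-type 2-cell embryos, a value that can include the undeleted part of the gene and the paternal allele.

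The promoters of the members with the largest falls, Bmi1 and Pcgf6, and the largest rise on the log2(FPKM + 1) scale, Jarid2, are shown. Kdm2b reads CpG sites and Tet3 acts on methylated ones, which is why they were chosen. They are the 250 bases before the start of Bmi1, of Pcgf6 and of the first of 2 listed starts of Jarid2, from RefSeq on GRCm38.p6, a later build than the mm9 of the expression data. Each is written 5′ to 3′ along the gene's own strand, with CpG dinucleotides in capitals.
Bmi1 (chr2:18676768-18677017, plus strand): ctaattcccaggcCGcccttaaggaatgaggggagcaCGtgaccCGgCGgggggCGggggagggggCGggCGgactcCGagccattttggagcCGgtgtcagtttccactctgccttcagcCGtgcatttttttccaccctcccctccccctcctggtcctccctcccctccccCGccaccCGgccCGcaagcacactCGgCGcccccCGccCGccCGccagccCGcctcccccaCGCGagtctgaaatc
Pcgf6 (chr19:47050907-47051156, minus strand): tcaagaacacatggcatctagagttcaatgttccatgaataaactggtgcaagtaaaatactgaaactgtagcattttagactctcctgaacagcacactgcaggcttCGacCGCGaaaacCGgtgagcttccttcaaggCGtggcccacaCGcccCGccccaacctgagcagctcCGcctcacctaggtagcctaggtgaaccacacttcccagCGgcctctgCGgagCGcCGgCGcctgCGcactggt
Jarid2 (chr13:44730524-44730773, plus strand): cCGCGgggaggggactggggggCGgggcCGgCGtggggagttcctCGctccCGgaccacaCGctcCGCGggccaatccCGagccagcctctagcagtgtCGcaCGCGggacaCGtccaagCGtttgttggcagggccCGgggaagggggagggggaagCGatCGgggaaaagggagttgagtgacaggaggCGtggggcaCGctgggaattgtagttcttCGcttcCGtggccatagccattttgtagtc
These windows held 21 CpG in Bmi1, 14 in Pcgf6 and 23 in Jarid2. All 10 members had an entry, with 14 windows in all because Jarid2 and Kdm2b have several starts, and the 14 held 12 to 38 CpG each. The median over 32851 mouse promoter windows of the same length was 6 CpG, with quartiles of 2 and 16. The E-box CACGTG, to which Max dimers bind, was in 1 of the 14 windows, that of Bmi1, and in 6.02% of all windows. The E2F motif GCGGGAA, searched like the E-box on both strands, was also in 1, that of Suz12, and in 3.82% of all.

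The largest changes in the Polycomb genes were between the stages. In embryos from Tet3-null oocytes 9 of the 10 members differed between blastocyst and 2-cell stage at an adjusted p of 0.05 (limma on log2(FPKM + 1), Benjamini-Hochberg over 13549 genes), 4 higher (Jarid2, Kdm2b, Ring1 and Eed) and 5 lower in blastocysts. In embryos from wild-type oocytes all 10 differed, those 4 higher and the other 6 lower. The stages differ in most genes: 74.0% of all genes tested were called in Tet3-null and 74.3% in wild-type embryos, so a called member is near what any gene does at this transition, and the size and direction of each member carry the description. The median log2 change of the members was -0.62 in Tet3-null and -0.88 in wild-type embryos, where the medians of all genes were 0.09 and -0.08. The 2 stages' libraries did not overlap for any member in either genotype, as for 86.1% of all genes in Tet3-null and 89.3% in wild-type embryos. All 10 members passed the minimum of 1 FPKM in 2 libraries, Ring1 only through the blastocyst libraries, so that its higher level there is in part fixed by the filter. In pools of whole embryos fewer cells with a transcript and less transcript per cell cannot be told apart, and the oocyte markers, a measure of inherited maternal RNA, summed to 1.20 to 2.19 FPKM in blastocysts against 1497 to 2331 FPKM in 2-cell embryos. The part of maternal RNA in the members' falls was not tested. Folds below are ratios of mean FPKM, and log2 changes are on the log2(FPKM + 1) scale, which understates the change of genes at low level.

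**Figure D1:**
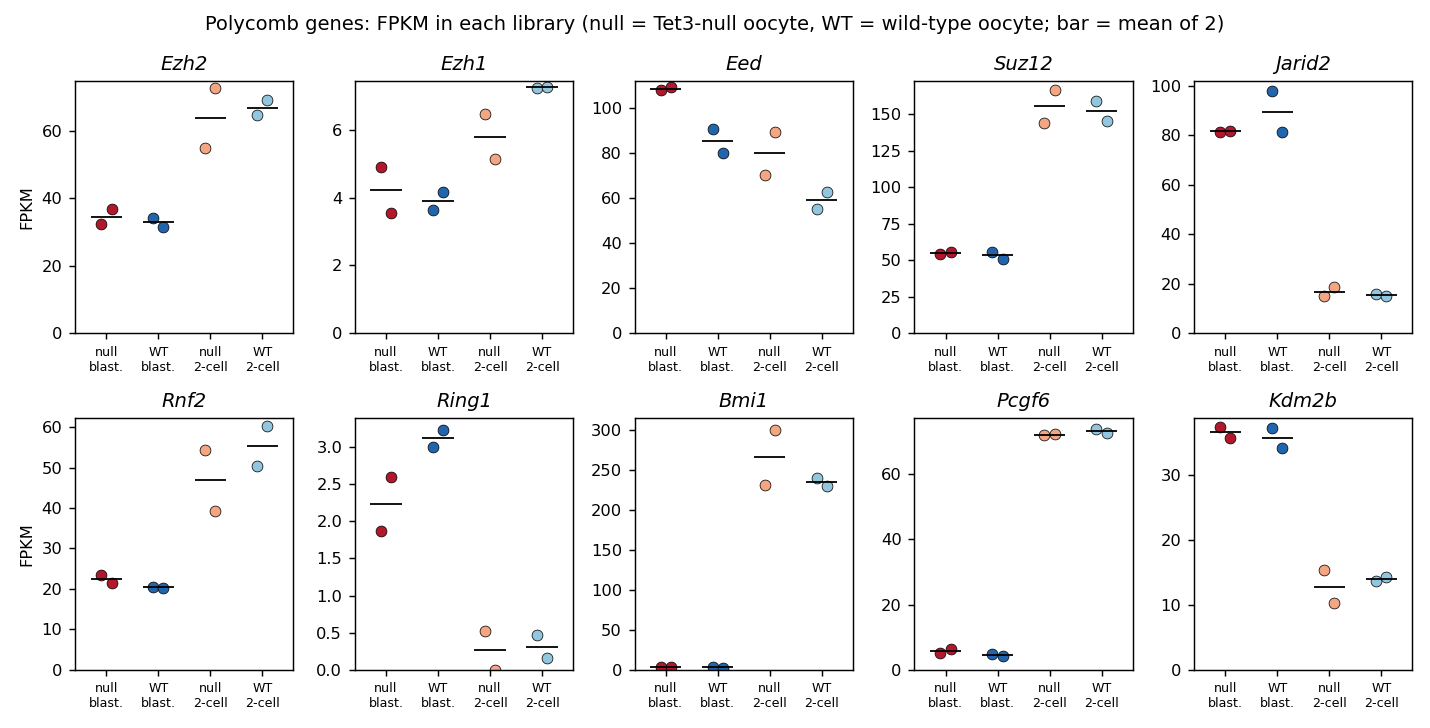
FPKM of the 10 Polycomb genes in each library, 1 panel per gene with a linear axis from 0; points are libraries, bars are means of 2, null and WT stand for embryos from Tet3-null and wild-type oocytes, and blast. for blastocyst. Bmi1 and Pcgf6 lie below 7 FPKM in all blastocyst libraries and above 70 FPKM in all 2-cell libraries, and Jarid2 lies above 80 FPKM in the first and below 19 FPKM in the second.

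Of the 5 PRC2 members, Suz12, the scaffold subunit that the enzyme needs for stability, fell the most. Suz12 measured 53.9 and 55.2 FPKM in Tet3-null blastocysts and 55.8 and 50.6 FPKM in wild-type blastocysts, against 144 and 167 FPKM in Tet3-null 2-cell embryos and 159 and 145 FPKM in wild-type 2-cell embryos. All 4 blastocyst libraries were below all 4 2-cell libraries. The fall was 2.85-fold in Tet3-null embryos (log2 change -1.49, SE 0.14, adjusted p = 5.62e-05 in limma) and 2.86-fold in wild-type embryos (log2 change -1.50, adjusted p = 5.95e-05 in limma).

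Ezh2, the main H3K27 methyltransferase of dividing cells, gave 32.2 and 37.0 FPKM in Tet3-null blastocysts and 34.2 and 31.6 FPKM in wild-type blastocysts. In 2-cell embryos it measured 55.1 and 72.8 FPKM in Tet3-null and 64.8 and 69.1 FPKM in wild-type. The stages did not overlap, and Ezh2 fell 1.85-fold in Tet3-null (limma adjusted p = 0.00306) and 2.03-fold in wild-type embryos (limma adjusted p = 0.00143). Ezh1, the weaker enzyme that prevails in resting cells, had 4.90 and 3.56 FPKM in Tet3-null blastocysts and 3.64 and 4.16 FPKM in wild-type blastocysts, against 6.48 and 5.13 FPKM in Tet3-null 2-cell embryos and 7.25 and 7.26 FPKM in wild-type 2-cell embryos. Ezh1 fell 1.86-fold in wild-type embryos (limma adjusted p = 0.0111), a call lost without wild-type blastocyst replicate 1 (adjusted p = 0.0700). In Tet3-null embryos it was 1.37-fold lower without passing the test (limma adjusted p = 0.121), though it passed under median-of-ratios scaling (log2 change -0.56, adjusted p = 0.0324). Ezh2 made up 86.8% to 91.2% of their summed FPKM in blastocysts and 89.5% to 93.4% in 2-cell embryos.

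Eed, the subunit that reads trimethylated H3K27 and stimulates the enzyme, went the other way in FPKM. It gave 108 and 109 FPKM in Tet3-null blastocysts and 91.0 and 80.3 FPKM in wild-type blastocysts, against 70.1 and 89.6 FPKM in Tet3-null 2-cell embryos and 55.1 and 62.9 FPKM in wild-type 2-cell embryos. Within each genotype all blastocyst libraries were above all 2-cell libraries. Summed FPKM was higher in blastocysts too, at 924556 to 956335 against 600495 to 634816 in 2-cell libraries. Values were not divided by that sum, so a rise of Eed relative to it is not shown. Eed rose 1.36-fold in Tet3-null (log2 change 0.45, limma adjusted p = 0.0394) and 1.45-fold in wild-type embryos (log2 change 0.53, limma adjusted p = 0.0212). These were the weakest calls among the members: under quantile normalization the log2 change was 0.06 (adjusted p = 0.765) in Tet3-null and 0.28 (adjusted p = 0.185) in wild-type embryos, and the Tet3-null call was also lost in 5 other settings, at adjusted p = 0.0545 to 0.245. It was lost as well on leaving out any library but Tet3-null 2-cell replicate 2, at adjusted p = 0.0507 to 0.136, and the wild-type call on leaving out wild-type 2-cell replicate 1 (0.107) or wild-type blastocyst replicate 1 (0.120).

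Jarid2 had the largest rise on the log2(FPKM + 1) scale. It measured 81.2 and 81.9 FPKM in Tet3-null blastocysts and 97.8 and 81.3 FPKM in wild-type blastocysts, against 15.2 and 18.4 FPKM in Tet3-null 2-cell embryos and 15.8 and 14.9 FPKM in wild-type 2-cell embryos. The rise was 4.86-fold in Tet3-null (log2 change 2.22, SE 0.16, limma adjusted p = 1.72e-05) and 5.83-fold in wild-type embryos (log2 change 2.46, limma adjusted p = 1.24e-05). Ratios taken within each library show the altered proportions. Eed had 2.54 to 3.35 times the FPKM of Ezh2 in blastocysts and 0.851 to 1.27 times in 2-cell embryos. Jarid2 had 2.22 to 2.86 times the FPKM of Ezh2 in blastocysts and 0.216 to 0.276 times in 2-cell embryos.

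Among the PRC1 genes, Bmi1 had the largest change of all members. It gave 3.33 and 2.93 FPKM in Tet3-null blastocysts and 3.39 and 2.57 FPKM in wild-type blastocysts, against 232 and 301 FPKM in Tet3-null 2-cell embryos and 240 and 230 FPKM in wild-type 2-cell embryos. That is a fall of 85.1-fold in Tet3-null (log2 change -6.01, SE 0.18, limma adjusted p = 5.91e-07) and of 79.0-fold in wild-type embryos (log2 change -5.90, limma adjusted p = 7.53e-07). Bmi1 was the most abundant member in 2-cell embryos of both genotypes, at the 97.1 and 96.7 percentile of genes tested by mean FPKM in Tet3-null and wild-type. In blastocysts it stood ninth of the 10 in Tet3-null and last in wild-type.

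Pcgf6 measured 5.15 and 6.39 FPKM in Tet3-null blastocysts and 4.83 and 4.21 FPKM in wild-type blastocysts, against 72.1 and 72.2 FPKM in Tet3-null 2-cell embryos and 73.8 and 72.7 FPKM in wild-type 2-cell embryos. It fell 12.5-fold in Tet3-null (log2 change -3.44, limma adjusted p = 2.39e-06) and 16.2-fold in wild-type embryos (log2 change -3.75, limma adjusted p = 1.89e-06). Kdm2b, the CpG-binding subunit, rose. It gave 37.4 and 35.6 FPKM in Tet3-null blastocysts and 37.2 and 34.2 FPKM in wild-type blastocysts, against 15.4 and 10.2 FPKM in Tet3-null 2-cell embryos and 13.7 and 14.2 FPKM in wild-type 2-cell embryos. The rise was 2.86-fold (limma adjusted p = 0.000404) in Tet3-null and 2.56-fold (limma adjusted p = 0.000803) in wild-type embryos. A whole-gene FPKM cannot separate transcripts from the distant starts of Kdm2b, which in mouse give proteins with and without the demethylase domain.

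The catalytic RING genes moved in opposite directions. Rnf2, the main H2A ubiquitin ligase of early mouse embryos, measured 23.4 and 21.5 FPKM in Tet3-null blastocysts and 20.5 and 20.3 FPKM in wild-type blastocysts, against 54.4 and 39.2 FPKM in Tet3-null 2-cell embryos and 50.4 and 60.3 FPKM in wild-type 2-cell embryos. It fell 2.08-fold in Tet3-null (limma adjusted p = 0.00223) and 2.72-fold in wild-type embryos (limma adjusted p = 0.000444). Ring1, its paralog, gave 1.87 and 2.59 FPKM in Tet3-null blastocysts and 3.01 and 3.23 FPKM in wild-type blastocysts, against 0.524 and 0 FPKM in Tet3-null 2-cell embryos and 0.468 and 0.153 FPKM in wild-type 2-cell embryos. It rose by 1.38 on the log2(FPKM + 1) scale in Tet3-null (limma adjusted p = 0.00204) and by 1.66 in wild-type embryos (limma adjusted p = 0.000818). As a ratio of mean FPKM its rise was 8.52-fold in Tet3-null and 10.1-fold in wild-type embryos, above that of Jarid2. That ratio rests on 2-cell values under 1 FPKM. Ring1 was the least abundant member in 2-cell embryos of both genotypes, and Rnf2 held 86.2% to 92.6% of the summed FPKM of the pair in blastocysts and 99.0% to 100% in 2-cell embryos.

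**Figure D2:**
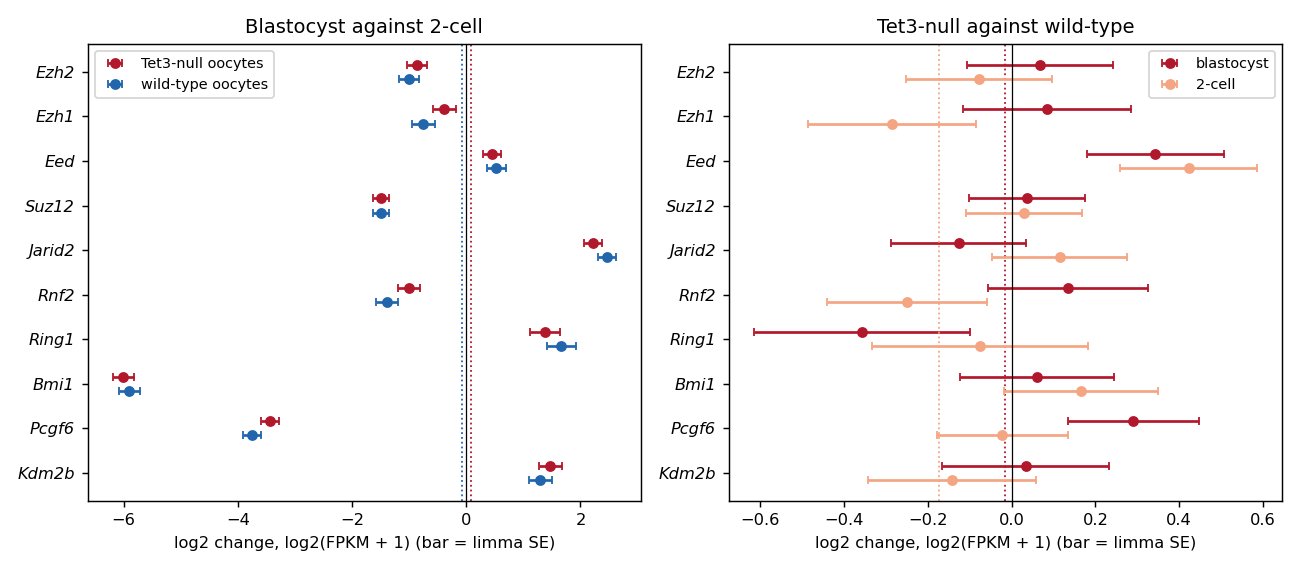
Log2 change on the log2(FPKM + 1) scale, with the limma standard error, for each member: blastocyst against 2-cell in each genotype (left) and the genotypes at each stage, Tet3-null minus wild-type (right); dotted lines are the medians of all genes tested. Changes between stages run from -6.01 for Bmi1 to 2.46 for Jarid2, whereas no difference between genotypes exceeds 0.42, that of Eed at the 2-cell stage.

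The order of the members by FPKM was therefore not the same at the 2 stages. FPKM is scaled by gene length, but the annotation is not given and strands are not told apart, so ranks between genes are approximate. In Tet3-null blastocysts Eed at 109 ± 0.990 FPKM led without overlap, followed by Jarid2 at 81.6 ± 0.480 and Suz12 at 54.6 ± 0.912, then Kdm2b at 36.5 ± 1.24 and Ezh2 at 34.6 ± 3.33 FPKM, which overlapped, and Rnf2 at 22.5 ± 1.34 FPKM. Pcgf6, Ezh1, Bmi1 and Ring1 followed in that order, none above 6.39 FPKM. In wild-type blastocysts Jarid2 at 89.6 ± 11.7 and Eed at 85.6 ± 7.57 FPKM led and overlapped, and the rest kept the Tet3-null order, except that Ring1 at 3.12 ± 0.160 and Bmi1 at 2.98 ± 0.578 FPKM overlapped. In Tet3-null 2-cell embryos Bmi1 at 266 ± 48.6 and Suz12 at 155 ± 16.1 FPKM led. Eed at 79.9 ± 13.7 FPKM overlapped Pcgf6 at 72.2 ± 0.121 FPKM, which overlapped Ezh2 at 63.9 ± 12.5 FPKM, and Rnf2, Jarid2, Kdm2b, Ezh1 and Ring1 came after them. In wild-type 2-cell embryos Bmi1 at 235 ± 7.12 and Suz12 at 152 ± 9.76 FPKM led as well, then Pcgf6 at 73.3 ± 0.783 and Ezh2 at 66.9 ± 3.03 without overlap, while Eed at 59.0 ± 5.53 and Rnf2 at 55.4 ± 7.02 FPKM overlapped.

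Between genotypes no member was called at either stage. At the 2-cell stage 0 of 10 passed in limma, where 2.72% of all genes were called, 0.613% higher and 2.1% lower. Eed alone had an unadjusted p under 0.05, 1 of 10 members beside 23.7% of all genes. In blastocysts 0 of 10 passed in limma, where 0.0664% of all genes were called, 0.0148% higher and 0.0517% lower, and 0 had an unadjusted p under 0.05, beside 5.46% of all genes. The log2 changes ran from -0.29 to 0.42 at the 2-cell stage, with a median of -0.05 beside -0.17 for all genes, and from -0.36 to 0.34 in blastocysts, with a median of 0.06 beside -0.02. The 368 genes called between 2-cell genotypes comprised 83 with higher and 285 with lower values in Tet3-null. That split was 83 and 80 under median-of-ratios scaling, where the median of all genes was 0 in this comparison. It was 86 and 104 under quantile normalization. For most members the differences between genotypes are small beside those of stage, but not for Eed and Ezh1. Their 2-cell genotype differences of 0.42 and -0.29 were near their stage changes of 0.45 and -0.38 in Tet3-null embryos. A p above the threshold does not show that the genotypes had equal levels.

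Eed had the largest difference at the 2-cell stage and the largest positive one in blastocysts. In 2-cell embryos it measured 70.1 and 89.6 FPKM in Tet3-null against 55.1 and 62.9 FPKM in wild-type, 1.35-fold higher without overlap (log2 change 0.42, SE 0.16, 0.59 above the median of all genes; unadjusted p = 0.0365, limma adjusted p = 0.181). In blastocysts it gave 108 and 109 FPKM in Tet3-null against 91.0 and 80.3 FPKM in wild-type, 1.27-fold higher without overlap (log2 change 0.34, SE 0.16, limma adjusted p = 0.990). Without Tet3-null 2-cell replicate 1, which leaves only the library that stood apart on that side, Eed passed at the 2-cell stage (log2 change 0.60, adjusted p = 0.0289), and without replicate 2 the change was 0.25 (adjusted p = 0.359). Eed shares exon sequence on the opposite strand with the listed gene E230029C05Rik, which was at 0 to 0.0421 FPKM. Ezh2, Suz12, Rnf2 and Kdm2b also overlap genes of the other strand, Rnf34 at 6.96 to 16.8 FPKM beside Kdm2b among them, and libraries of this kind do not tell the strands apart.

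The libraries of the genotypes were apart for 3 of the 10 members at the 2-cell stage, 1 higher and 2 lower in Tet3-null, where 47.5% of all genes were, 12.6% higher and 34.9% lower. The lower ones were Ezh1, at 6.48 and 5.13 FPKM in Tet3-null against 7.25 and 7.26 FPKM in wild-type (limma adjusted p = 0.420), and Pcgf6, at 72.1 and 72.2 FPKM in Tet3-null against 73.8 and 72.7 FPKM in wild-type, whose log2 change of -0.02 became 0.22 under median-of-ratios scaling and 0.10 under quantile normalization. In blastocysts 4 members were apart, 3 higher and 1 lower in Tet3-null, where 44.2% of all genes were, 19.0% higher and 25.3% lower. Eed, Rnf2 and Pcgf6 were higher in Tet3-null. Ring1 was lower, at 1.87 and 2.59 FPKM in Tet3-null against 3.01 and 3.23 FPKM in wild-type (log2 change -0.36, SE 0.26, limma adjusted p = 1.0). Beside these, the 7 trophectoderm markers summed to 2742 and 2987 FPKM in Tet3-null against 4222 and 4543 FPKM in wild-type blastocysts, and the 7 oocyte markers to 1752 and 2331 FPKM in Tet3-null against 1497 and 1739 FPKM in wild-type 2-cell embryos. The 6 primitive endoderm markers summed to 406 and 427 FPKM in Tet3-null against 352 and 364 FPKM in wild-type blastocysts. That sum does not stand for each marker. Gata6 was higher, at 109 and 119 FPKM in Tet3-null against 107 and 96.4 FPKM in wild-type. Gata4 was lower, at 1.97 and 1.68 FPKM in Tet3-null against 4.23 and 2.91 FPKM in wild-type, and Sox17 overlapped. In 2-cell embryos the 8 genes of the 2-cell stage summed to 1431 and 1964 FPKM in Tet3-null against 1085 and 1316 FPKM in wild-type, with Gm4340 at 0 in all, and 7 sperm markers to 11.8 and 23.4 FPKM in Tet3-null against 7.39 and 8.05 FPKM in wild-type, with Tnp2 and Smcp at 0 in all. The part of any of these in the members' values was not tested.

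The change between stages did not differ detectably between genotypes. For the difference of the genotype effects 0 of 10 members passed in limma and 0 had an unadjusted p under 0.05, where 0.14% of all genes were called and 14.4% had such an unadjusted p. The estimates ran from -0.28 for Ring1 to 0.38 for Rnf2 on the log2 scale, with standard errors of 0.20 to 0.36, and differences of this size were not detectable with 2 libraries per group. Ezh1, which passed between stages in wild-type embryos and not in Tet3-null embryos, had a difference of 0.37 (SE 0.28, limma adjusted p = 0.586).

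**Figure D3:**
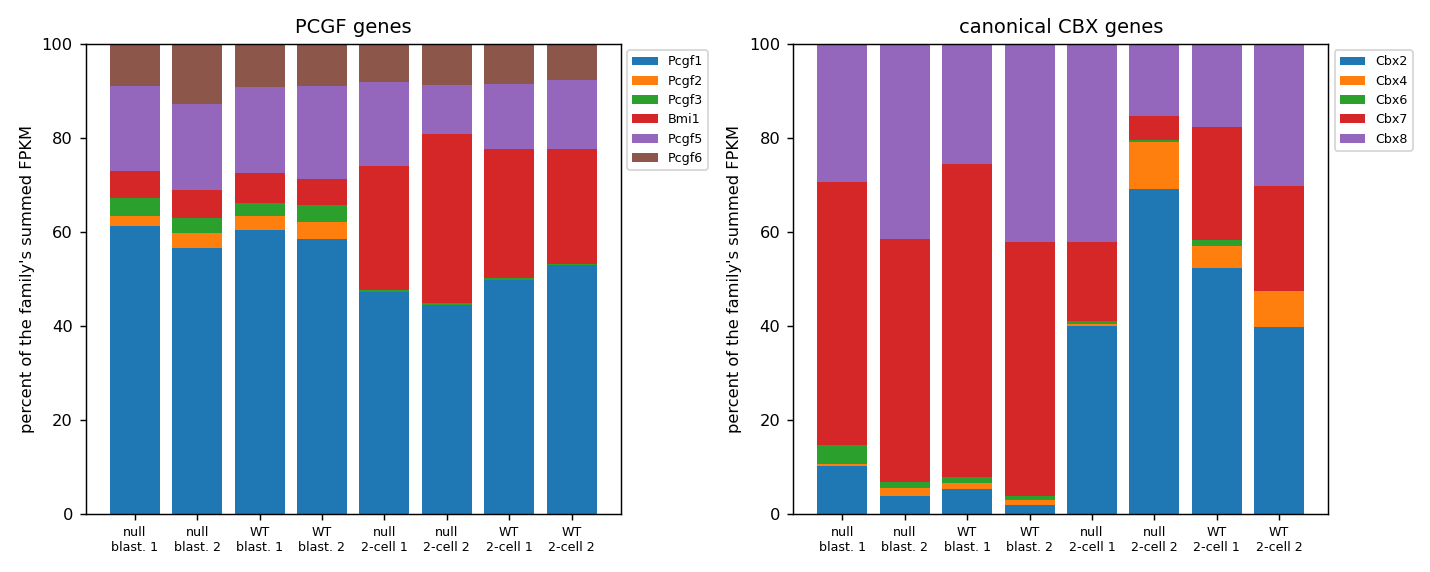
Percent of summed FPKM that each PCGF gene (left) and each canonical CBX gene (right) holds in each of the 8 libraries; null and WT stand for Tet3-null and wild-type oocytes and the digit after the stage for the replicate. Bmi1 holds 5.47% to 6.39% of the PCGF sum in blastocysts and 24.5% to 35.9% in 2-cell embryos, and Cbx7 holds the largest CBX share in all 4 blastocyst libraries.

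Partners of the members showed where the PRC1 transcripts lay. The 6 PCGF genes summed to 47.0 to 57.3 FPKM in blastocysts, against 837 to 941 FPKM in 2-cell embryos. Pcgf1, of the Kdm2b complex, held the largest share at both stages, 56.6% to 61.2% in blastocysts and 44.5% to 52.9% in 2-cell embryos, although it fell 12.5-fold in Tet3-null embryos (limma adjusted p = 2.45e-06) and 15.7-fold in wild-type embryos (limma adjusted p = 1.97e-06). Pcgf5 fell 12.7-fold in Tet3-null and 13.5-fold in wild-type embryos (limma adjusted p = 1.96e-05 and 1.82e-05), a size close to that of Pcgf6. The canonical CBX genes, whose proteins bind trimethylated H3K27, were weakly expressed, with a sum of 8.97 to 12.9 FPKM in blastocysts and 5.14 to 12.2 FPKM in 2-cell embryos. Cbx7 held 51.8% to 66.6% of that sum in blastocysts and 5.20% to 24.0% in 2-cell embryos, whereas Cbx2 held 1.79% to 10.2% in blastocysts and 39.7% to 69.1% in 2-cell embryos. Cbx8, not called between stages, held 25.5% to 42.2% in blastocysts and 15.3% to 42.1% in 2-cell embryos. It had the largest share in Tet3-null 2-cell replicate 1.

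Across the other machinery, 51 genes in lists of PRC2, PRC1, PR-DUB and H3K27 demethylase genes, of which 47 were tested, 10 were higher and 20 lower in blastocysts in Tet3-null embryos and 9 and 24 in wild-type embryos, as were 38.9% and 35.1% of all genes in Tet3-null embryos, while 35.8% of all genes were higher and 38.4% lower in wild-type embryos. Their median log2 change was -0.44 in Tet3-null and -0.63 in wild-type embryos, beside 0.09 and -0.08 for all genes. Phf1, Cbx2, Scml2, Asxl3 and Mbd5, all lower in blastocysts, passed the minimum through 2-cell libraries alone. Pcgf2, which was higher, passed through blastocyst libraries alone. The filter in part fixes the direction of these genes, which enters the counts and medians. The largest fall on the log2(FPKM + 1) scale in Tet3-null embryos was that of AU022751, the listed symbol of Ezhip, whose protein inhibits PRC2. It measured 4.37 and 2.26 FPKM in Tet3-null blastocysts and 6.01 and 8.14 FPKM in wild-type blastocysts, against 271 and 168 FPKM in Tet3-null 2-cell embryos and 147 and 203 FPKM in wild-type 2-cell embryos (log2 change -5.68 in Tet3-null and -4.44 in wild-type, limma adjusted p = 6.90e-06 and 2.22e-05). Scml2, a Polycomb protein of the germline, was at 0.0314 to 0.120 FPKM in blastocysts and 25.6 to 36.2 FPKM in 2-cell embryos (log2 change -4.74 in Tet3-null and -5.03 in wild-type, limma adjusted p = 1.11e-06 and 1.10e-06). As a ratio of mean FPKM its fall of 302-fold in Tet3-null embryos exceeded the 66.2-fold of AU022751, and it passed the minimum through 2-cell libraries alone.

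Genes of this machinery that rose included E130012A19Rik, the listed symbol of Epop, a PRC2 partner in mouse embryonic stem cells. It gave 9.04 and 14.1 FPKM in Tet3-null blastocysts and 14.1 and 16.1 FPKM in wild-type blastocysts, against 1.12 and 0.487 FPKM in Tet3-null 2-cell embryos and 2.47 and 2.81 FPKM in wild-type 2-cell embryos (log2 change 2.79 in Tet3-null and 2.14 in wild-type, limma adjusted p = 6.26e-05 and 0.000258). Kdm6b, which removes H3K27 methylation, rose 3.59-fold in Tet3-null and 3.06-fold in wild-type embryos (limma adjusted p = 0.000366 and 0.000761). Its paralog Kdm6a fell 5.72-fold in Tet3-null and 3.33-fold in wild-type embryos (limma adjusted p = 4.63e-05 and 0.000306). Kdm6b thus held 92.2% to 94.9% of the summed FPKM of these demethylases in blastocysts and 42.9% to 61.1% in 2-cell embryos.

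**Figure D4:**
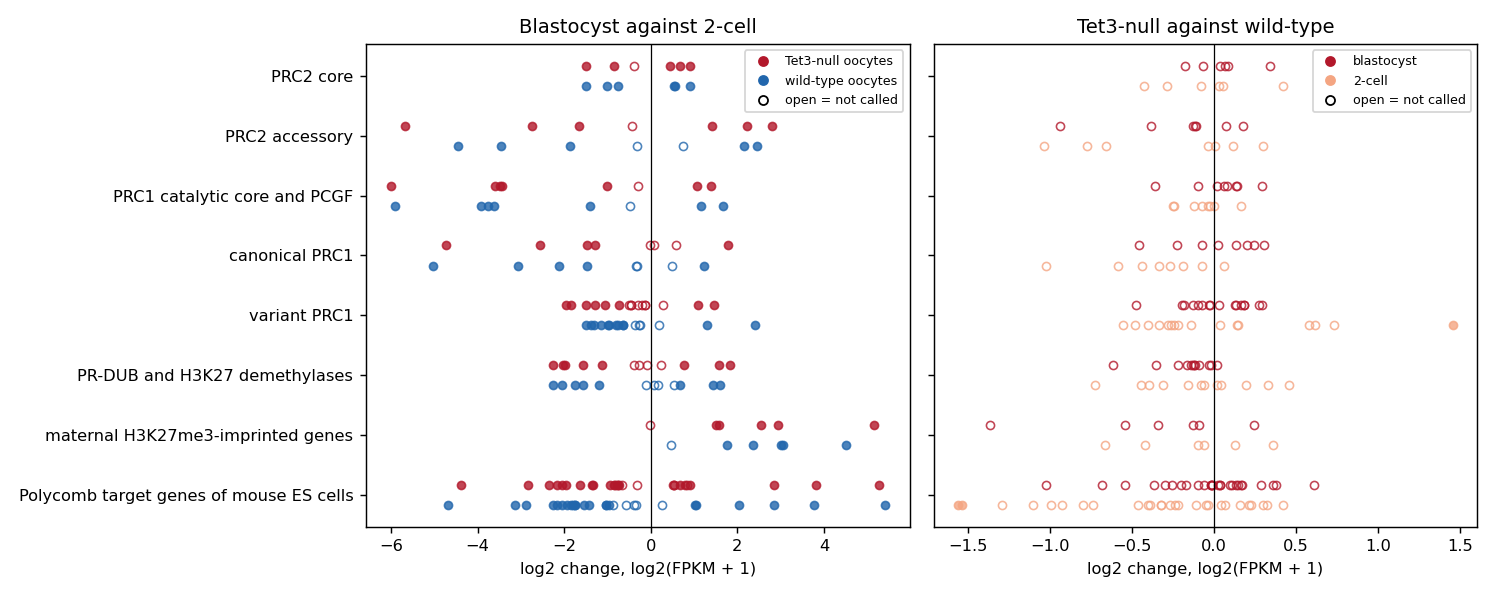
Log2 change on the log2(FPKM + 1) scale of each tested gene in 8 lists of Polycomb machinery and target genes, between stages in each genotype (left) and between genotypes at each stage (right); filled points are called at an adjusted p of 0.05. Between genotypes 3 genes are filled, all at the 2-cell stage: E2f6 at 1.45, Nkx2-5 at -1.53 and Cdkn1c at -1.56.

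Between genotypes 1 of the 47 other machinery genes was called at the 2-cell stage and 0 in blastocysts, with 11 and 3 at an unadjusted p under 0.05. Over all genes 0.613% were called higher at the 2-cell stage, and 23.7% at the 2-cell stage and 5.46% in blastocysts had such an unadjusted p, so these counts are near the background. The called gene was E2f6, the DNA-binding partner of the Pcgf6 complex. It measured 1.46 and 3.08 FPKM in Tet3-null 2-cell embryos against 0 and 0.336 FPKM in wild-type 2-cell embryos (log2 change 1.45, SE 0.28, limma adjusted p = 0.0481). The call was lost in all 7 other settings, at adjusted p = 0.0502 to 0.376, and in 7 of the 8 fits that left out a library. Between stages E2f6 was higher in blastocysts of both genotypes, at 6.11 and 5.40 FPKM in Tet3-null (log2 change 1.09, limma adjusted p = 0.00947) and 4.76 and 5.53 FPKM in wild-type blastocysts (log2 change 2.41, limma adjusted p = 0.000192).

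Of 60 developmental genes bound by Polycomb in mouse embryonic stem cells, 33 did not reach 1 FPKM in at least 2 libraries and 27 were tested. Of the 27, 14 reached 1 FPKM at the 2-cell stage alone, Hoxa7 and Lhx1 among them, and 4 in blastocysts alone, so the direction of these 18 is in part fixed by the filter and the counts and medians do not stand for all 60. In blastocysts 7 were higher and 14 lower in Tet3-null embryos, where 38.9% of all genes were higher and 35.1% lower. In wild-type embryos 6 were higher and 16 lower, where 35.8% of all genes were higher and 38.4% lower, with median log2 changes of -0.75 in Tet3-null and -1.04 in wild-type, beside 0.09 and -0.08 for all genes. Gata6, a primitive endoderm factor, rose to 109 and 119 FPKM in Tet3-null blastocysts and 107 and 96.4 FPKM in wild-type blastocysts, against 1.98 and 1.95 FPKM in Tet3-null 2-cell embryos and 1.42 and 1.40 FPKM in wild-type 2-cell embryos. The homeobox gene Hoxa7 was listed at 0 in 3 of the 4 blastocyst libraries and at 0.0234 FPKM in the fourth, against 17.2 and 22.6 FPKM in Tet3-null 2-cell embryos and 24.7 and 25.0 FPKM in wild-type 2-cell embryos. Lhx1 was at most 0.0193 FPKM in blastocysts, against 4.35 and 8.54 FPKM in Tet3-null 2-cell embryos and 10.6 and 5.92 FPKM in wild-type 2-cell embryos. All of these passed in both genotypes (limma adjusted p = 0.000203 for Lhx1 in Tet3-null embryos, the highest).

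Between genotypes 2 of the 27 target genes were called at the 2-cell stage, both lower in Tet3-null as were 2.1% of all genes, with 7 at an unadjusted p under 0.05, a share near the 23.7% of all genes, and a median log2 change of -0.26 beside -0.17 for all genes. None was called in blastocysts, with 2 at an unadjusted p under 0.05 in limma, beside 5.46% of all genes. The cardiac homeobox gene Nkx2-5 gave 0.705 and 0.691 FPKM in Tet3-null 2-cell embryos against 4.24 and 3.62 FPKM in wild-type 2-cell embryos (log2 change -1.53, SE 0.16, limma adjusted p = 0.0183). It reached the minimum of 1 FPKM in the wild-type 2-cell libraries alone, so its lower value in Tet3-null is in part fixed by the filter. The same holds for Pax3, which was not called but enters the median, at 0.695 and 0.933 FPKM in Tet3-null against 3.25 and 2.06 FPKM in wild-type. In blastocysts it holds for Wnt6, which passed through the wild-type libraries alone. Cdkn1c, an imprinted inhibitor of the cell cycle, measured 12.0 and 6.64 FPKM in Tet3-null 2-cell embryos against 29.7 and 26.97 FPKM in wild-type 2-cell embryos (log2 change -1.56, SE 0.27, limma adjusted p = 0.0390). The first call was lost in 3 of 7 other settings and in 6 of 8 fits that left out a library, the second in 6 of 7 and 6 of 8, at adjusted p = 0.0517 to 0.376.

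Of 6 genes imprinted through maternal H3K27 methylation in mouse embryos, 5 were higher in blastocysts in each genotype, where 38.9% of all genes were higher in Tet3-null and 35.8% in wild-type, with median log2 changes of 2.05 in Tet3-null and 2.69 in wild-type, beside 0.09 and -0.08 for all genes. Smoc1 and Slc38a4 passed the minimum through blastocyst libraries alone, which in part fixes their direction and enters these medians. Slc38a4, an amino acid transporter, had the largest change on the log2 scale, with 46.9 and 50.0 FPKM in Tet3-null blastocysts and 43.4 and 38.3 FPKM in wild-type blastocysts, against 0.706 and 0.120 FPKM in Tet3-null 2-cell embryos and 0.956 and 0.743 FPKM in wild-type 2-cell embryos. Between genotypes 0 of the 6 were called at either stage, with 1 at each stage at an unadjusted p under 0.05 in limma, beside 23.7% of all genes at the 2-cell stage and 5.46% in blastocysts. The one in blastocysts was Xist, the RNA that silences an X chromosome, named here after its values were seen. It had 6.36 and 4.64 FPKM in Tet3-null blastocysts against 16.6 and 14.6 FPKM in wild-type blastocysts, 2.84-fold lower without overlap but not called (unadjusted p = 0.000309, limma adjusted p = 0.260), and its reads cannot be told apart from those of its antisense gene Tsix. The sex of the pooled embryos was not available here, and its part in the Xist difference was not tested. Total FPKM does not tell the parental alleles apart.

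The gene closest to each member was the one with the smallest root mean square difference of centred log2(FPKM + 1) over the 8 libraries. For Suz12 it was Eps15 at 0.0640, for Kdm2b Nup205 at 0.0624, for Jarid2 Vasp at 0.0893 and for Pcgf6 Gm5088 at 0.0886, at 4.96 and 4.19 FPKM in blastocysts and 75.3 and 68.7 FPKM in 2-cell embryos of the Tet3-null and wild-type groups. For Rnf2 it was Slc34a2 at 0.0709, for Ezh1 Ilf2 at 0.0721, for Ezh2 Wdr27 at 0.0733, for Ring1 Adpgk at 0.0924 and for Eed Snrnp27 at 0.119. Likeness on this scale is not likeness of fold: Wdr27 averaged 0.0136 and 0.847 FPKM in Tet3-null blastocysts and 2-cell embryos, and the added 1 brings so low a gene near the smaller fold of Ezh2. Bmi1 had the most distant neighbour, Gm8234 at 0.140. Among the members themselves Kdm2b and Ring1 lay closest, at 0.216, and Suz12 and Rnf2 next, at 0.269.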

How the data were processed

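RNA of 8 pools of mouse embryos was made into cDNA with the SMARTer Ultra Low Input kit and into libraries with NEBNext Ultra reagents, per the labels' protocols. The values are FPKM as deposited by the authors, 1 file per library. The submitters' processing notes name TopHat2 2.0.10, Bowtie2 2.1.0, Cufflinks 2.2.0 and mm9. The sources used here give neither settings nor annotation, and the unit is read from the tools and values. Read totals are unknown, so no counting error can be given.

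Genes at 1 FPKM or more in at least 2 libraries (13549 of 23234) were fitted as log2(FPKM + 1) with limma 3.58.1 in R 4.3.3, with an intensity trend and all 4 groups in 1 model. Genotypes were compared within each stage, stages within each genotype, and the genotype effect in blastocysts with that in 2-cell embryos. P-values were adjusted by Benjamini-Hochberg over all genes tested at 0.05. Alternatives were a pseudocount of 0.1, no filter, median-of-ratios scaling, quantile normalization, no intensity trend, the compared groups alone, a replicate block, and leaving out each library. The members and gene lists were chosen with earlier results of these data known. Beside the members, the text names list genes called between genotypes, for each stage comparison the 3 called machinery genes and the 2 called target or imprinted genes with the largest log2 change in each direction, partner genes for their levels, and the gene closest to a member over the 8 libraries. The fit was tested on simulated data, in which 100 of 13549 genes changed by 1 and 100 by 2 on the log2 scale. For Tet3-null against wild-type 2-cell embryos it called 33.0% and 80.0% of these. For the genotypes in blastocysts it called 25.0% and 71.0%, and for the difference of genotype effects 2.0% and 51.0%. Between stages it called 33.0% and 74.0% for Tet3-null embryos and 23.0% and 65.0% for wild-type ones. False calls were 0 to 8 each. Apart from the changes, each simulated gene had 1 mean and 1 spread in all libraries. The comparisons of 2 groups therefore differ only by the random draw. The real stages differ in most genes, so these shares do not carry over to them. Promoter sequences are RefSeq's on GRCm38.p6; strand overlaps come from a GRCm38 annotation, used for names alone.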

Additional observations from a re-analysis of the deposited data

How the results depend on the processing

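In the 7 settings that kept every library, 0 members were called between genotypes at either stage, 8 to 9 between stages in Tet3-null and 9 to 10 in wild-type embryos. Leaving out 1 library gave 0 to 1 at the 2-cell stage, where the 1 was Eed without Tet3-null 2-cell replicate 1, 8 to 9 between stages in Tet3-null and 8 to 10 in wild-type embryos. Replicate numbers showed no sign of pairing over the genes tested: deviations of same-numbered libraries correlated at -0.076 to 0.018. With so few libraries per group this cannot show whether same-numbered pools shared a mother or collection day. With a replicate block 8 members were called between stages in Tet3-null and 10 in wild-type embryos and 0 between genotypes, and calls over all genes at the 2-cell stage were 7 against 368. Those calls were 3 with the compared groups alone, 163 under median-of-ratios scaling and 190 under quantile normalization. They were 3453 and 314 without Tet3-null 2-cell replicate 1 and 2, 28 and 10 without wild-type 2-cell replicate 1 and 2, 18 without either Tet3-null blastocyst library and 8 without either wild-type one. The cause was not tested.

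No change between stages reversed in these settings, and dividing by summed FPKM was not among them. Of the uncalled differences between genotypes at the 2-cell stage, Ezh2 turned to 0.17, Pcgf6 to 0.22 and Kdm2b to 0.089 under median-of-ratios scaling, and Ezh2 to 0.034, Ring1 to 0.047, Pcgf6 to 0.10 and Kdm2b to 0.055 under quantile normalization. For the blastocyst effect minus the 2-cell effect, Ezh2 turned to -0.048, Suz12 to -0.19 and Kdm2b to -0.0036 under median-of-ratios scaling, and Ring1 to 0.12 with a pseudocount of 0.1. Leaving out 1 library turned the sign of further uncalled log2 differences. At the 2-cell stage the values ran from -0.28 to 0.12 for Ezh2, -0.075 to 0.13 for Suz12, -0.018 to 0.25 for Jarid2, -0.38 to 0.23 for Ring1, -0.021 to 0.35 for Bmi1 and -0.42 to 0.13 for Kdm2b. In blastocysts they ran from -0.10 to 0.27 for Ezh1, -0.028 to 0.16 for Ezh2, -0.033 to 0.11 for Suz12, -0.26 to 0.0048 for Jarid2, -0.089 to 0.21 for Bmi1 and -0.027 to 0.093 for Kdm2b. For the difference of effects they ran from -0.052 to 0.34 for Ezh2, -0.25 to 0.095 for Eed, -0.098 to 0.11 for Suz12, -0.59 to 0.021 for Ring1, -0.29 to 0.081 for Bmi1 and -0.098 to 0.45 for Kdm2b. A fit without 1 library leaves its group with 1, assumed to vary like the others. The compared groups alone were not run for the difference of effects.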
